A study of Mus musculus with 4 samples.

Results

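The Zic genes encode zinc finger transcription factors that were first described in the cerebellum and are relatives of the Gli proteins, the effectors of hedgehog signalling. In the mouse they are expressed early in the neural plate and later in the dorsal neural tube, at the neural plate border and in the forming cerebellum. Zic2 is also expressed in pluripotent cells, and loss of its function is a known cause of a failure of forebrain division. Zic5 has been linked in the mouse to neural tube closure and neural crest formation.

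The family members described here are Zic1, Zic2, Zic4 and Zic5. They were selected by symbol from the deposited tables, where all 4 were found among 21690 features. RNA was sequenced from neural precursors made from the A2lox mouse embryonic stem cell line, which holds a doxycycline-inducible construct against Geminin, a small nucleoprotein that restrains replication licensing. The 4 libraries comprise 3 Geminin knockdown libraries from independent experiments, given 500 ng doxycycline from day 3, and 1 control library of the same line without doxycycline. All cultures grew as a monolayer in serum-free N2B27 medium and were harvested on day 5. The comparison asks whether transcript levels differ when Geminin is reduced during neural differentiation. The control has no replicate. A culture with doxycycline but without the construct was not analysed here, so the drug and the knockdown cannot be told apart. With 1 control library for 3 independent experiments, not every knockdown library has a control from its own experiment. Differences between experiments thus cannot be told from the knockdown either.

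Gmnn, the gene for Geminin, had 27.0, 65.9 and 27.9 FPKM in knockdown libraries 1, 2 and 3, against 112.9 FPKM in the control. FPKM is the number of sequenced fragments per length of exon, scaled to the total mapped in a library. Knockdown library 2 thus kept 58.4% of the control level and the others 24.0% and 24.7%. The authors' deposited tables marked it lower in libraries 1 and 3 and not in library 2. Markers of neural precursors were present in all 4 libraries. Sox1, a marker of the early neural plate, had 63.8, 42.5 and 48.8 FPKM in knockdown libraries 1, 2 and 3, against 64.0 FPKM in the control. Sox2, Nes and Pax6, other precursor markers, went the other way in library 2, with 203, 125 and 75.6 FPKM there, against 135, 100.5 and 55.8 FPKM in the control. None of these 4 markers was called by the study's rule, beside 2.88% of all callable features in either direction. At that share the absence of calls is no result about the markers, and they were chosen after their values were seen. Judged by the steps in which the lowest values change, knockdown libraries 1, 2 and 3 held 1.00, 1.15 and 0.972 times the reads of the control.

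The 4 genes form 2 neighbouring pairs. In the deposited mm9 coordinates Zic1 lies at chr9:91255182-91260637 and Zic4 at chr9:91263809-91284186, with 3171 bases between them. Zic5 lies at chr14:122858381-122864880 and Zic2 at chr14:122874605-122879550, with 9724 bases between them. No listed feature outside the family overlaps them in the tables. In the GENCODE M21 annotation of the later build GRCm38, Zic1 and Zic5 run on the minus strand and Zic4 and Zic2 on the plus strand, so each pair is arranged head to head. That annotation extends Zic4 over Zic1 by 3398 bases. Whether counting used strand is not given in the sources used here, so reads from such an overlap cannot be told apart.

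The coding sequences are alike enough to ask whether reads could be shared. Between Zic1 and Zic2, 84.0% of 1069 aligned coding bases were identical, and the longest run without a mismatch was 35 bases. The stretch around that run is shown because it marks where the most abundant pair is hardest to distinguish. It lies within the part that codes for the first zinc finger. Lower case marks bases that both genes share, and capitals mark the 18 of 125 positions where they differ. The Zic1 stretch is at chr9:91364215-91364339 on the minus strand and the Zic2 stretch at chr14:122476444-122476568 on the plus strand (GRCm38, GENCODE M21 transcripts).
Zic1: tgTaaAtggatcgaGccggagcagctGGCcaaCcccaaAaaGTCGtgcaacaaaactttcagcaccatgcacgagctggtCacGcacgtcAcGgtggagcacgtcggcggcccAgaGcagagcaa
Zic2: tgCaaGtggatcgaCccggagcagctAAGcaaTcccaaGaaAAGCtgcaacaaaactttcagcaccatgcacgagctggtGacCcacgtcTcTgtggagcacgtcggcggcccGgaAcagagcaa
The longest run shared by any pair was 42 bases, between Zic1 and Zic4, in the same finger:
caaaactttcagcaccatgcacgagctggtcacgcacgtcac
In windows of 50 bases, 0 of 2391 windows of the transcript used for Zic2 and 0 of 3842 of that for Zic4 occurred in another gene. For Zic1, 14 of 5557 windows occurred in another member and 27 in other genes, where each of the 27 matched the opposite strand. The 14 were absent from the transcripts used for the other members. They thus lie in further transcripts of a member, on a strand that was not recorded, and do not measure coding likeness. For Zic5, 362 of 4718 windows, 7.67%, occurred in other genes, and 361 of these matched Gm12241. The read length is not given in the sources used here, so these shares describe the sequences and not the reads.

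The sequence around each start is shown beside the pairing because the members of a pair are transcribed away from each other. RefSeq promoter windows, 250 bases before to 50 after a start on GRCm38.p6, were found for 3 of the 4 genes (no entry was matched for Zic2). Each was searched on both strands for 5 motifs. These were the TATA box with the letters TATAAA, the box CCAAT, the GC box with the letters GGGCGG, the E-box with the letters CACGTG and the homeodomain core with the letters TAATTA. No motif overlapped another, and matches are in capitals. The windows are Zic1 at chr9:91365719-91366018 on the minus strand, Zic4 at chr9:91368722-91369021 on the plus strand and Zic5 at chr14:122465609-122465908 on the minus strand.
Zic1: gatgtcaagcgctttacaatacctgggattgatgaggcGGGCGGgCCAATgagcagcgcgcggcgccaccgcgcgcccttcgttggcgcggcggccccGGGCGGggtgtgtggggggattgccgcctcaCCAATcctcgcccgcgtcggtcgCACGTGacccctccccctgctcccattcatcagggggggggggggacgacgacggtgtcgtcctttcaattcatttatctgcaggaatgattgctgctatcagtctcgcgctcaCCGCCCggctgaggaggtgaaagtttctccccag
Zic4: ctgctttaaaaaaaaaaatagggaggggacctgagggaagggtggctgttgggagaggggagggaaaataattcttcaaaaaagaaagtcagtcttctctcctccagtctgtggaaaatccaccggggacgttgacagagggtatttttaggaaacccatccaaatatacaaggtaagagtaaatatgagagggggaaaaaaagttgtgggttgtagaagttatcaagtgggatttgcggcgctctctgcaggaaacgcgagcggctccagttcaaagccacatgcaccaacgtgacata
Zic5: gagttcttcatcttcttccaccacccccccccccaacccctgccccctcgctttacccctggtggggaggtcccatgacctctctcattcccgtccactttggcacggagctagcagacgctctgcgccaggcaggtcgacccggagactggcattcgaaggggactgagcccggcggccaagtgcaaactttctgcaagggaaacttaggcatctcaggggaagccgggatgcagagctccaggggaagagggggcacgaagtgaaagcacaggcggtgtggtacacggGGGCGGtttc
The Zic1 window held 3 GC boxes, 2 CCAAT boxes and 1 E-box, the Zic5 window held 1 GC box and the Zic4 window held none of the 5 motifs. Of 32851 promoters in the table, 35.7% held a GC box, 37.4% a CCAAT box, 7.15% this E-box, 13.6% the TATA box and 5.29% the homeodomain core. The GC content was 65.3% in the Zic1 window, 46.0% in the Zic4 window and 62.7% in the Zic5 window, against a median of 52.7% over all promoters. These matches describe letters in the windows and not binding.

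Zic1 and Zic2 were the abundant members, and together they made up 91.7%, 90.6% and 92.8% of the summed FPKM of the 4 genes in knockdown libraries 1, 2 and 3, and 93.5% in the control. The summed level was 44.4, 27.8 and 45.8 FPKM in knockdown libraries 1, 2 and 3, against 39.5 FPKM in the control. The knockdown mean was 39.3 ± 10.0 FPKM (SD, n = 3), so the control value lay inside the knockdown spread. In bulk RNA, fewer cells of a type and less RNA per cell cannot be told apart, here and below. By level the order was Zic1 and Zic2, then Zic5, then Zic4 in every library. The knockdown means of Zic1 and Zic2 did not differ beyond their spread, while the ranges of Zic5 and Zic4 overlapped neither each other nor those of the abundant members.

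Zic1, a dorsal neural and neural plate border factor, had 18.6, 11.6 and 24.2 FPKM in knockdown libraries 1, 2 and 3, against 15.9 FPKM in the control. Libraries 1 and 3 were above the control and library 2 was below it. The knockdown mean was 18.1 ± 6.28 FPKM (SD, n = 3), and the highest knockdown library had 2.08 times the level of the lowest. Single libraries stood at 117%, 73.1% and 152% of the control.

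Zic2, the forebrain and dorsal neural member, had 22.2, 13.6 and 18.3 FPKM in knockdown libraries 1, 2 and 3, against 21.0 FPKM in the control. Only library 1 was above the control, and library 2 was again the lowest. The knockdown mean was 18.0 ± 4.31 FPKM (SD, n = 3), and single libraries stood at 105%, 64.5% and 87.2% of the control. The values of Zic2 correspond to whole reads in the proportion of 401, 282 and 321 in knockdown libraries 1, 2 and 3 to 379 in the control, to within 0.00137 reads. These are the smallest whole numbers that match once the depth steps are removed, and a common multiple would match as well.

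Zic5, the partner of Zic2 on chromosome 14, had 3.08, 2.44 and 2.60 FPKM in knockdown libraries 1, 2 and 3, against 2.32 FPKM in the control. It was the only one of the 4 genes whose knockdown values all lay on 1 side of the control. The knockdown mean was 2.71 ± 0.335 FPKM (SD, n = 3), or 117% ± 14.4 of the control. For comparison, the control lay between the lowest and highest knockdown library in 54.3% of the 11968 features tested by limma. The smallest whole reads that match Zic5 were 44, 40 and 36 in knockdown libraries 1, 2 and 3, against 33 in the control. These are too few to be the reads themselves. In the same control Zic4 matched at least 12 reads at 0.236 FPKM, on a shorter GENCODE M21 transcript (3891 bases, against 4767 for Zic5). A common multiple is therefore likely, and no counting interval is given for Zic5.

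Zic4, the partner of Zic1 on chromosome 9, was close to the limit of what these libraries could measure. It had 0.589, 0.188 and 0.690 FPKM in knockdown libraries 1, 2 and 3, against 0.236 FPKM in the control. Libraries 1 and 3 stood at 249% and 292% of the control and library 2 at 79.5%. The knockdown mean was 0.489 ± 0.265 FPKM (SD, n = 3). The smallest whole reads that match were 30, 11 and 34 in knockdown libraries 1, 2 and 3, against 12 in the control. If these are the reads, their 95% Poisson intervals are 20.2 to 42.8, 5.49 to 19.7 and 23.5 to 47.5, against 6.20 to 21.0 in the control. These intervals cover counting error only. For Zic1 no set of whole reads with up to 1000 in the control matched.

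**Figure D1:**
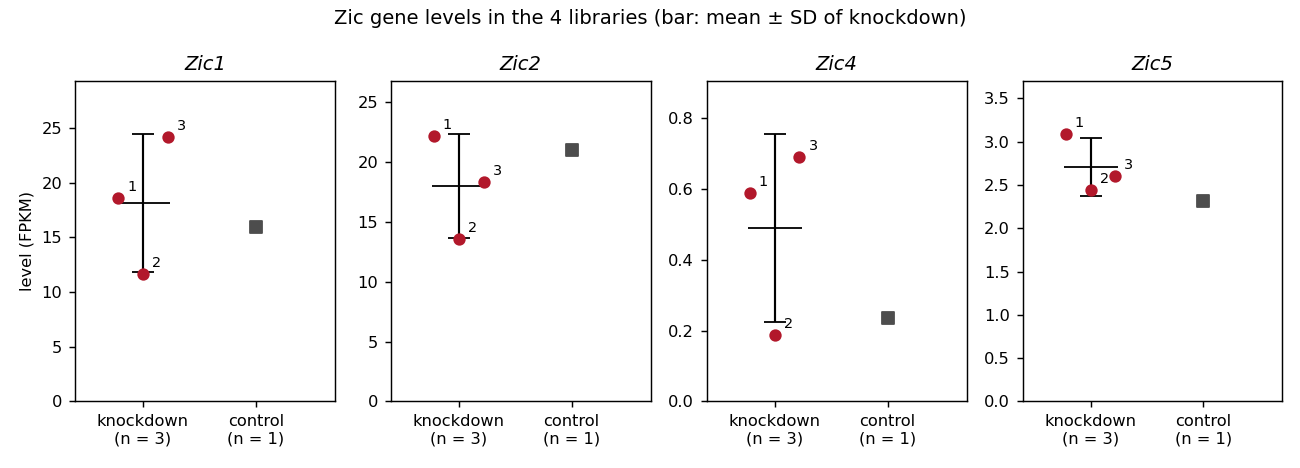
Level of each Zic gene in FPKM (y axis, from 0, separate scale per gene) in the 3 knockdown libraries, numbered and in red, and in the control, a grey square; the black bar is the mean ± SD of knockdown (n = 3). Knockdown library 2 is the lowest of the red points in all 4 panels, and the Zic5 panel is the 1 in which every red point lies above the control.

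None of the 4 genes was called under the study's rule, which asks for a significant Cuffdiff mark in 1 direction in at least 2 of the 3 tables. Of 14477 features that could be called, 1.98% were higher and 0.905% were lower in knockdown by that rule, 2.88% in either direction. The authors' deposited tables marked none of the 12 single comparisons of a Zic gene with the control. They marked 2.43% of usable features for knockdown library 1, 5.24% for library 2 and 4.62% for library 3. Each such mark compares 1 library with 1 library, and the 3 tables share their control, so they are not independent. The smallest deposited p-value of a Zic gene was 0.0197, for Zic1 in knockdown library 3 (q-value 0.224), followed by 0.0371 for Zic2 in library 2 (q-value 0.316).

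The error that Cuffdiff assigned to each comparison sets what could have been marked. From the deposited statistic, the 95% interval of Zic1 in knockdown library 3 runs from 107% to 216% of the control, and that of Zic2 in library 2 from 42.7% to 97.4%. The other 10 intervals include 100%. At the errors found here, a mark would have needed a change of at least 1.32, 1.91 and 1.73-fold for Zic1 in libraries 1, 2 and 3. For Zic2 the needed change was 1.31, 1.88 and 1.76-fold, for Zic5 2.11, 3.62 and 3.51-fold, and for Zic4 4.79, 6.50 and 5.77-fold. Smaller observed changes would not have been marked in that comparison.

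**Figure D2:**
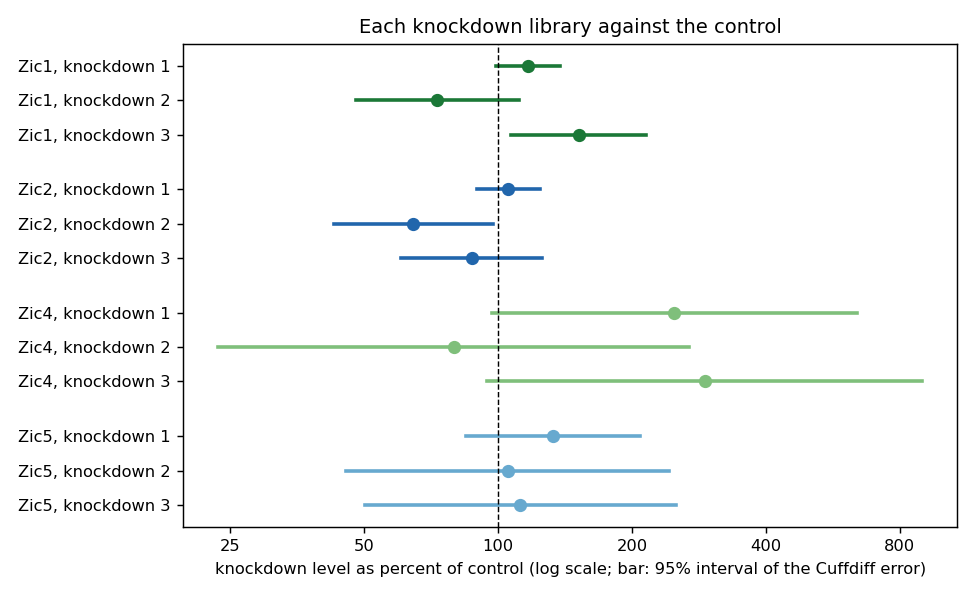
Knockdown level of each Zic gene as percent of the control (x axis, log scale) for each knockdown library (y axis); bars are the 95% interval of the Cuffdiff error within 1 comparison and the dashed line is the control level. Zic1 in knockdown library 3 lies above 100% and Zic2 in library 2 below it, and the Zic4 bars are the widest.

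Across the 3 knockdown libraries, limma on log2(FPKM + 1) gave a mean log2 ratio of knockdown over control of 0.12 with a standard error of 0.41 for Zic1. Its 95% interval runs from -0.97 to 1.21. Zic2 had -0.24 with a standard error of 0.29 and an interval from -1.01 to 0.54. Zic5 had 0.16 with a standard error of 0.25 and an interval from -0.51 to 0.82. None of the 3 passed the threshold (limma, adjusted p = 0.999 for each), and over all 11968 features tested limma called 0.125%. At an unadjusted p under 0.05 limma had 0 of the 3, beside 1.27% of all features. Gmnn, the knocked-down gene, did not pass in the same fit either, with a log2 ratio of -1.59 and a standard error of 0.56 (limma, adjusted p = 0.999), so a gene that misses this threshold is not shown to be unaltered. Zic4 was below the mean of 1 FPKM asked of tested features. Fitted with all features of usable status, it had 0.25 with a standard error of 0.25 and an interval from -0.51 to 1.01 (limma, adjusted p = 0.974). The intervals of Zic1 and Zic4 still include a log2 ratio of 1 and that of Zic2 a log2 ratio of -1. That of Zic5 includes neither, but the added 1 FPKM compresses the ratios of the low genes Zic5 and Zic4. With a pseudocount of 0.1 the limma interval of Zic5 runs from -0.70 to 1.12 and includes a log2 ratio of 1. The data thus do not show that any of these genes kept its level. The sign of the Zic1 mean depended on knockdown library 3, since without it the mean log2 ratio was -0.11. With a pseudocount of 0.1 the mean log2 ratio of Zic4 was 0.68 and was not tested.

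The spread between knockdown libraries was wider for Zic1 than for most genes. The SD of its 3 log2 ratios was 0.50, above that of 91.2% of tested features, whose median was 0.17. The SD was 0.34 for Zic2, above 81.7% of tested features, and 0.13 for Zic5, above 36.8%. Zic1 and Zic2 thus differed more between independent knockdown cultures than their mean differed from the control.

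**Figure D3:**
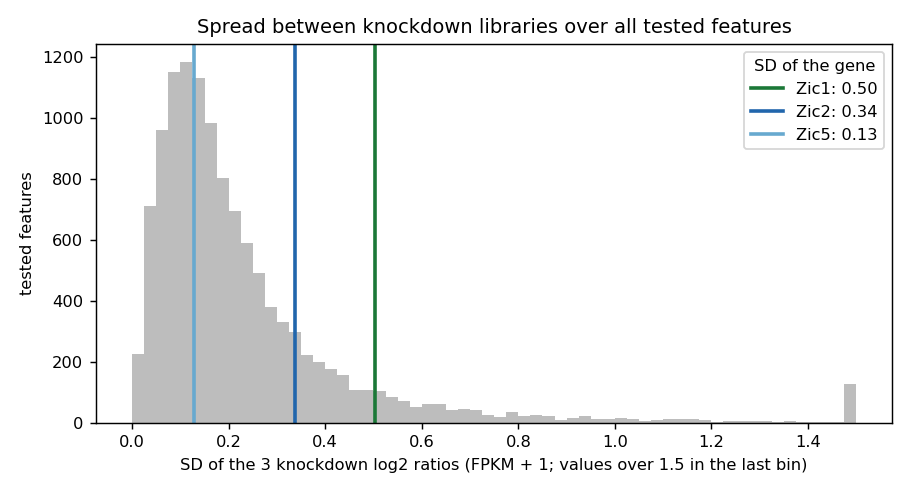
Number of tested features (y axis) by the SD of their 3 knockdown log2 ratios (x axis, FPKM + 1), with vertical lines for 3 Zic genes. Zic1 at 0.50 and Zic2 at 0.34 lie in the right tail, and Zic5 at 0.13 lies near the peak.

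Knockdown library 2 had the lowest level of all 4 genes among the knockdown libraries. That library was the lowest in 27.0% of all tested features. The genes of a pair had their highest value in the same library, Zic1 and Zic4 in library 3 and Zic2 and Zic5 in library 1. Within a library the ratio of Zic1 to Zic2 in FPKM was 0.839, 0.858 and 1.32 in knockdown libraries 1, 2 and 3, against 0.758 in the control. Zic1 exceeded Zic2 in knockdown library 3 alone. The ratio of Zic2 to Zic5 was 7.19, 5.56 and 7.03 in knockdown libraries 1, 2 and 3, against 9.06 in the control, and the mean of 6.59 ± 0.898 (SD, n = 3) left the control above every knockdown value. These ratios were not tested. With 3 libraries and 1 control, a two-sided exact permutation p could not go below 0.5.

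By the distance between their 3 log2 ratios, Zic1 was nearer to its neighbour Zic4 (0.41) than to Zic5 (0.66) or Zic2 (0.79). Zic4 was nearer to Zic5 (0.355) than to its neighbour Zic1. Zic2 was nearest to its neighbour Zic5 (0.751), while Zic5 was nearest to Zic4. On this scale of FPKM + 1, 1 gene in each pair had its neighbour as the nearest member and the other did not. Without the added 1 FPKM, each of the 4 genes has another nearest member, so this order is no result about the pairs. All these ratios share 1 control, and the low level of Zic4 compresses its ratios on this scale. Among 9462 features with a mean of at least 5 FPKM, those nearest to Zic1 were Mir2132, Apeg3 and Bhlhe40, at distances of 0.160, 0.183 and 0.185. Bhlhe40, a basic helix-loop-helix repressor, had 6.93, 4.43 and 8.24 FPKM in knockdown libraries 1, 2 and 3, against 5.53 FPKM in the control. Nearest to Zic2 were Cr1l, Vcl and Pkp2, at distances of 0.0435 to 0.0503. Vcl encodes the adhesion protein vinculin and had 77.9, 47.3 and 62.5 FPKM in knockdown libraries 1, 2 and 3, against 73.2 FPKM in the control. Nearest to Zic4 were Dclre1c, 2310057M21Rik and Ninj1, at 0.0951 to 0.103. Nearest to Zic5 were Anapc10, Srsf16 and Mrpl51, at 0.0313 to 0.0365. These distances describe 3 ratios a feature.

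The genes nearest to the Zic loci were not called, beside 2.88% of all callable features in either direction. At that share, no call among so few genes is no result about the loci. On chromosome 14 the next feature below Zic5 is Clybl, a mitochondrial enzyme gene, with 6.52, 8.01 and 8.50 FPKM in knockdown libraries 1, 2 and 3, against 5.92 FPKM in the control. It shares its listed locus with 1700108J01Rik and Gm5089, so these levels are uncertain. Above Zic2, Pcca, which encodes a subunit of propionyl-CoA carboxylase, had 4.46, 5.76 and 5.19 FPKM in knockdown libraries 1, 2 and 3, against 5.08 FPKM in the control. On chromosome 9 the nearest listed genes are far away, Tbc1d2b at 1089574 bases below Zic1 and Plscr1 at 860844 bases above Zic4. Plscr1 had 14.3, 15.8 and 17.4 FPKM in knockdown libraries 1, 2 and 3, against 19.1 FPKM in the control. Library 2 was the lowest for none of Clybl, Pcca and Plscr1. It was the lowest in 27.0% of all tested features, so this is no result about these genes.

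The Gli and Glis genes, which encode the closest relatives of the Zic proteins, had 0 of 6 members called, beside 2.88% of all callable features in either direction. At that share a count of 0 in a short list is no result about the list. Gli3, mainly a repressor in hedgehog signalling, had 36.0, 29.3 and 29.5 FPKM in knockdown libraries 1, 2 and 3, against 37.3 FPKM in the control. Glis2 had 16.7, 17.9 and 19.0 FPKM in knockdown libraries 1, 2 and 3, against 17.3 FPKM in the control. Of 16 ventral neural tube and hedgehog genes 12 could be called and 0 were, again beside 2.88% of all features. Smo, the hedgehog signal transducer, had 49.8, 55.5 and 45.7 FPKM in the knockdown libraries, against 61.3 FPKM in the control. Boc, a hedgehog co-receptor of the same list, had 25.6, 27.5 and 25.8 FPKM in the knockdown libraries, against 27.6 FPKM in the control.

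Of 20 genes of the dorsal neural tube and roof plate, where Zic1 and Zic2 are known to act, 1 rose, 0 fell and 19 were not called, and 18 of the 20 had a usable status for the rule. Of all callable features 1.98% rose and 0.905% fell, so 1 call in a list this short is no result about the list. Bmp6, a bone morphogenetic protein, had 2.63, 19.1 and 18.3 FPKM in knockdown libraries 1, 2 and 3, against 3.19 FPKM in the control. It was not called without library 2 or without library 3. The median log2 ratio of the list was -0.01, -0.09 and 0.19 in knockdown libraries 1, 2 and 3, beside -0.02, 0.03 and 0.01 over all tested features. Pax3, a marker of dorsal progenitors, had 16.4, 15.0 and 11.5 FPKM in knockdown libraries 1, 2 and 3, against 16.7 FPKM in the control. Pax7 had 5.48, 10.3 and 7.63 FPKM in the knockdown libraries, against 5.42 FPKM in the control, and neither was called. Atoh1, the proneural factor of the rhombic lip, was listed at 0 in knockdown libraries 1 and 2 and in the control and had 0.0836 FPKM in knockdown library 3. These 3 genes were chosen after their values were seen.

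Of 15 measured genes of the neural plate border and neural crest 11 could be called and 0 were, beside 2.88% of all features. Ednrb, the endothelin receptor B, had 94.0, 308 and 245 FPKM in knockdown libraries 1, 2 and 3, against 99.2 FPKM in the control. Id3 had 67.4, 59.2 and 53.4 FPKM in the knockdown libraries, against 89.9 FPKM in the control. The list medians were -0.16, -0.24 and 0.10 in knockdown libraries 1, 2 and 3. Both this list and the dorsal list had their lowest median in library 2 and their highest in library 3, and no test was made of that order. Their sums did not follow it. The sum of this list was 211, 403 and 347 FPKM in knockdown libraries 1, 2 and 3, against 240 FPKM in the control, so it was highest in library 2. That of the dorsal list was 105, 124 and 139 FPKM, against 105 FPKM in the control.

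Of 7 genes that other work has linked to Zic proteins, 1 rose and 0 fell, and 3 of the 7 had a usable status for the rule. For comparison, 1.98% of all callable features rose and 0.905% fell, and 1 call among so few genes is no result about the list. Nanog, a pluripotency factor, had 4.97, 23.1 and 40.3 FPKM in knockdown libraries 1, 2 and 3, against 3.91 FPKM in the control, and it was not called without library 2 or without library 3. Nanog overlaps the listed feature Nanogpd, so its level is uncertain. Apoe, an apolipoprotein, had 137 ± 1.93 FPKM in knockdown (mean ± SD, n = 3), against 141 FPKM in the control. Ephb1, a guidance receptor that Zic2 is known to regulate in retinal axons of the mouse, had 3.26, 4.76 and 2.14 FPKM in knockdown libraries 1, 2 and 3, against 4.15 FPKM in the control. Myf5, a muscle regulator, was listed at 0 in all 4 libraries. Apoe, Ephb1 and Myf5 were chosen after their values were seen.

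The knockdown libraries differed strongly in the markers of other cell types, beside which the Zic values stand. For comparison with the counts below, 1.98% of all callable features were called higher in knockdown and 0.905% lower. Usable status was held by 21 neuronal, 17 pluripotency, 19 epithelial, 16 neural precursor and 16 fibroblast genes. Of 22 measured neuronal genes 9 rose and 0 fell, led by Nhlh2, Nhlh1 and Neurog1, which encode basic helix-loop-helix factors, and the neurofilament gene Nefm. Their summed level was 232, 759 and 380 FPKM in knockdown libraries 1, 2 and 3, against 220 FPKM in the control. Of 17 pluripotency genes 10 rose and 1 fell, led by Dppa5a, Tdgf1, Zfp42 and Esrrb (Dppa5a and Tdgf1 have close copies in the genome, so their levels are uncertain), with sums of 583, 580 and 872 FPKM in knockdown libraries 1, 2 and 3, against 590 FPKM in the control. The median log2 ratio of the list was 0.06, 1.37 and 1.96 in the 3 knockdown libraries, so its sum and its median differed in library 2. Of 20 epithelial genes 0 rose and 12 fell, among them the junction genes Cldn4, Cdh1 and Cldn7, with sums of 617, 87.3 and 217 FPKM in knockdown libraries 1, 2 and 3, against 566 FPKM in the control. Among the knockdown libraries, library 2 had the lowest value of each Zic gene, though Zic5 there was above the control (2.44 against 2.32 FPKM). Library 2 also had the most neuronal and the least epithelial transcript. The neural precursor list had sums of 704, 983 and 729 FPKM in knockdown libraries 1, 2 and 3, against 709 FPKM in the control, so it was highest in that library. In it 1 of 20 genes rose, Pou3f3, with 6.30, 54.9 and 29.9 FPKM in knockdown libraries 1, 2 and 3, against 7.18 FPKM in the control. Fibroblast markers, listed because embryonic fibroblasts served as feeders for the stem cells, had sums of 374, 171 and 486 FPKM in knockdown libraries 1, 2 and 3, against 335 FPKM in the control. The median log2 ratio of that list was 0.07, 0.30 and 0.55 in the 3 knockdown libraries, so in library 2 the median lay above 0 while the sum lay below the control. Of 19 measured fibroblast genes 3 rose and 0 fell, the matrix genes Postn, Lox and Col5a2. Of 18 mesoderm and muscle genes 7 could be called and 1 rose, the paraxial mesoderm factor Tcf15, beside 1.98% of all features. Apart from Lin28a, the pluripotency gene that fell, every call in these lists needed both library 2 and library 3. In library 1 the median log2 ratio was 0.11 for the neuronal and 0.06 for the epithelial list, with Gmnn at 24.0% of the control. In library 2 these medians were 1.94 and -2.06, with Gmnn at 58.4%. In library 3 they were 0.79 and -1.28, with Gmnn at 24.7%. Whether the shifts in libraries 2 and 3 belong to the knockdown or to the experiment was not tested. The part of these cell type markers in the Zic values was not tested.

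**Figure D4:**
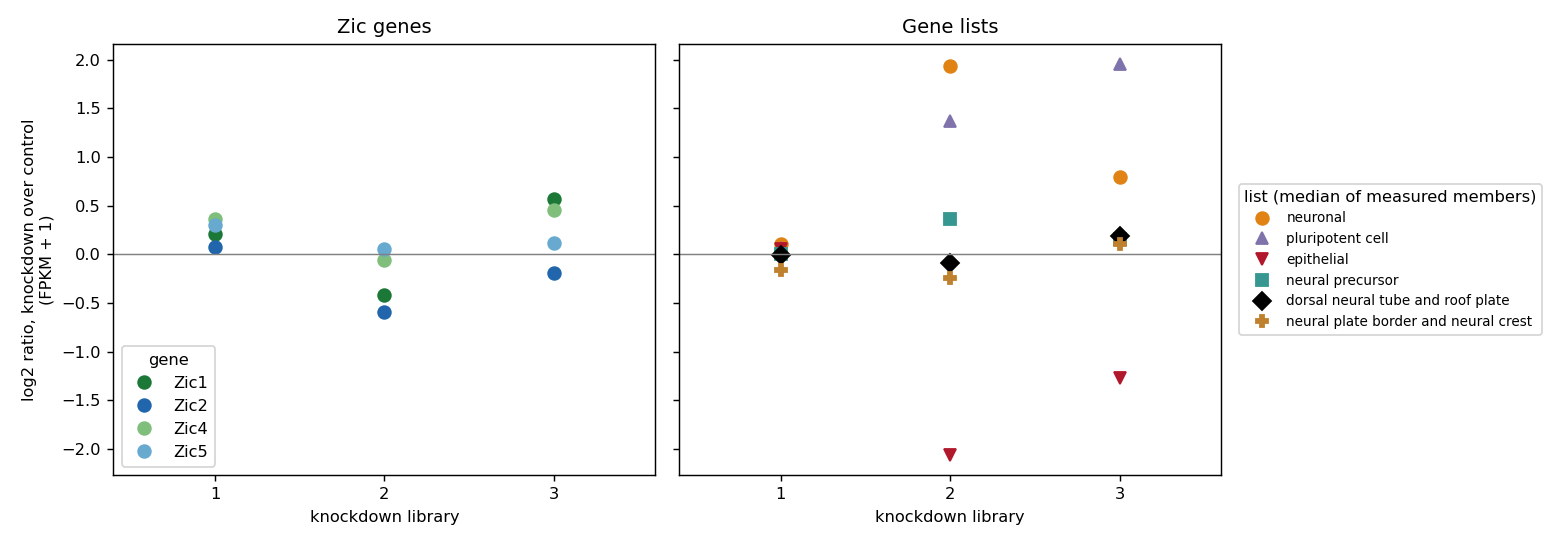
Log2 ratio of knockdown over control (y axis, FPKM + 1) in each knockdown library (x axis) for the 4 Zic genes (left) and as the median of measured members of 6 gene lists (right). On this scale the Zic genes stay between -0.60 and 0.57, whereas the neuronal median reaches 1.94 and the epithelial median -2.06 in library 2. The added 1 FPKM compresses Zic4, whose log2 ratios without it were 1.32, -0.33 and 1.54 in knockdown libraries 1, 2 and 3.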

How the data were processed

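The authors deposited 1 Cuffdiff table for each of the 3 knockdown libraries against the shared control. The submitters' processing notes name TopHat, Cufflinks and Cuffdiff with genome build mm9, with no versions. Per the file headers the tables hold FPKM for both libraries, a Cuffdiff p-value, a q-value treated as a score because it exceeds 1 in places, and the natural log ratio and test statistic, also treated as scores. The authors gave no counts. Low values step in whole reads: for 84.7% to 87.9% of low features the 2 libraries' values stood in a proportion of integers no larger than 12, within 0.2%, which gives the relative depths. No count model was used, since the reads behind an FPKM depend on the feature's length.

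The study's rule calls a feature marked significant in at least 2 of 3 tables in 1 direction and in none in the other. Limma 3.58.1 (R 4.3.3, trended prior variance) was fitted to log2(FPKM + 1) of 11968 features with usable status in all tables and a mean of at least 1 FPKM. Knockdown values were taken relative to the control of the same table. With 2 residual degrees of freedom, all from knockdown, the spread of the unreplicated control is assumed to equal theirs. Benjamini-Hochberg adjustment ran over all features tested, with a threshold of 0.05. The limma step was tested on simulated data. Cuffdiff standard errors are the log ratio over the deposited statistic. The fold needed for a mark uses the largest p-value marked in that table.

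The 4 genes and 11 gene lists were chosen with earlier results of these data known. Named were the 4 genes, Gmnn, their nearest features by position and by pattern, and from each list the called members with the biggest mean log2 change (4 at most), or, in lists without calls, the 2 with the highest level. Genes outside this rule are identified in the text. Alternatives were another pseudocount, no filter, centred tables, marks in all 3 tables and leaving out each knockdown library. Some genes are not reported here.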

Additional observations from a re-analysis of the deposited data

How the results depend on the processing

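The count of Zic genes called by the study's rule was 0 in each direction with marks in all 3 tables and without any 1 knockdown library. The mean log2 ratio of Zic1 was 0.12 with all libraries and ranged from -0.11 without library 3 to 0.39 without library 2. That of Zic4 was 0.68 with a pseudocount of 0.1, against 0.25 with 1. It ranged from 0.15 to 0.41 with a library left out. For Zic2 the range was -0.39 to -0.06 and for Zic5 0.08 to 0.21. No Zic gene passed the limma threshold under any alternative in which it was fitted (adjusted p 0.625 to 1). Over all features, marks in all 3 tables gave 3 higher and 14 lower, against 286 and 131 by the study's rule. Without library 2 there were 12 higher and 23 lower, without library 3 there were 12 and 22, and without library 1 there were 272 and 120. Limma called 3 higher and 12 lower. It called 0 and 4 with no filter on low values (371 features at an unadjusted p under 0.05), and 3 and 5 with a pseudocount of 0.1. It called 4 higher and 24 lower without library 1, 3 and 7 without library 2, and 1 and 5 without library 3. The cause of these shifts was not tested. No paired analysis was possible because the groups share only 1 replicate number, that of knockdown library 1 and the control. The number alone does not show that these libraries come from the same experiment. The lone control and the low level of Zic4 and Zic5 limit the precision.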
